A study of Mus musculus with 10 samples.

Results

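The genes described here code for amino acid transporters, and they were followed through mouse embryonic stem cells and 4 kinds of neural stem cell culture. They were taken by name: every gene on the array whose symbol begins with Slc7a, Slc38a, Slc36a, Slc43a or Slc3a, and the genes Slc1a1, Slc1a4, Slc1a5, Slc1a6 and Slc1a7. This gave 41 of the 19938 genes measured. The rule uses names only, but it was set with earlier results of these data known. One of the 41, Slc7a6os, codes for a protein that lies on the opposite strand beside Slc7a6 and is no transporter, and Slc43a3 is known mainly as a carrier of purine bases.

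Cells cannot make the essential amino acids and must import them, together with glutamine, cystine and arginine that fast-growing cells use up. Light chains of the Slc7a family work only when joined to a heavy chain, Slc3a2 (the surface antigen CD98) or Slc3a1, and most of them exchange an internal for an external amino acid. The Slc1a and Slc38a carriers take up neutral or acidic amino acids with sodium, and the Slc43a carriers let neutral amino acids pass by diffusion. Slc36a carriers such as Slc36a1 move small amino acids with protons. Several of these genes belong to the amino acid response, in which the kinase Eif2ak4 senses uncharged transfer RNA and the transcription factor Atf4 raises uptake and synthesis genes.

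The cultures followed the passage from embryonic stem cells over primitive neural stem cells, which need the cytokine Lif, to definitive neural stem cells, which grow in FGF and EGF. ESC were cells of the R1 line, an established mouse line of a strain background other than ICR, on mitomycin C-treated mouse embryonic fibroblast feeders with 15% serum and 1000 U/ml Lif. Their medium also held added non-essential amino acids, L-glutamine, pyruvate and 2-mercaptoethanol. pNSC_L were primary spheres formed from ESC in serum-free DMEM/F-12 and N2 with 1000 U/ml Lif. pNSC_LF were such spheres passaged with 1000 U/ml Lif plus heparin and FGF at 10 ng/ml. Passaging primitive cells in DMEM/F-12, N2, B27, heparin and 20 ng/ml each of EGF and FGF, without Lif, gave dNSC. CNS_NSC were neural stem cells from the frontal brain of E11.5 wild-type embryos of the ICR strain, grown with N2, heparin and 20 ng/ml each of EGF and FGF. Each group had 2 biological replicates with 1 array each. The strain differs between CNS_NSC and all other groups, so strain and source cannot be told apart. The labels state B27 for dNSC and do not state it for CNS_NSC, so a difference in medium cannot be told apart from source either. Serum, feeders and the added amino acids and 2-mercaptoethanol differ between ESC and the other cultures, so medium and stage cannot be told apart either. The pNSC_L, pNSC_LF and dNSC cultures all derive from this 1 cell line.

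Values are log2 intensities, so that 1 unit is a 2-fold difference, and a probe set's level cannot be set against that of another. The words rose and fell are used where limma gave an adjusted p below 0.05 over all 19938 genes. Differences are first group minus second, with the SE of the fit (n = 2 arrays per group), whose precision is limited by having 10 arrays in all. In bulk RNA, fewer cells of a type and less RNA per cell cannot be told apart. Replicates of dNSC differed by 2-fold or more at 1 gene and those of pNSC_LF at 23, against 30 in ESC, 167 in pNSC_L and 277 in CNS_NSC. The mean level of 6 embryonic stem cell markers was 10.20 and 10.26 on the dNSC arrays, between 12.72 and 12.88 on the arrays of the 3 Lif cultures, and 6.98 and 6.99 on the CNS_NSC arrays. The mean level of 7 neural stem cell markers was 11.27 and 11.29 in dNSC, 12.13 and 12.18 in CNS_NSC, and between 8.28 and 8.45 in the Lif cultures. dNSC thus lay between the Lif cultures and CNS_NSC for both sets.

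The transporter genes rose most often at the step to dNSC. Against pNSC_LF, 15 members were higher and 4 lower in dNSC, which is 46.3% called, where 38.6% of all genes were called. By direction, 36.6% of members rose and 9.76% fell, where 19.3% of all genes rose and 19.3% fell. Against CNS_NSC, 18 members were higher and 1 lower in dNSC, again 46.3% called, where 34.0% of all genes were called. Of the members, 43.9% were higher and 2.44% lower in dNSC than in CNS_NSC, where 17.6% of all genes were higher and 16.5% lower. Both comparisons use the same dNSC arrays and are not independent of each other. The median difference over the members was 0.08 for dNSC minus pNSC_LF and 0.32 for dNSC minus CNS_NSC, beside -0.01 over all genes in each.

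Few members moved between the Lif cultures. In pNSC_L against ESC, 1 member rose and 3 fell, 9.76% of members, where 13.4% of all genes were called, 6.56% higher and 6.79% lower. In pNSC_LF against pNSC_L, limma called 0 of 41 members, where 1.78% of all genes were called, 1.1% higher and 0.677% lower; 8 members had an unadjusted p below 0.05, and other settings called between 0 and 2. In CNS_NSC against ESC, 5 members were higher and 8 lower, 31.7% of members, where 43.8% of all genes were called, 21.7% higher and 22.1% lower. Calls of at least 2-fold covered 3 members for pNSC_L minus ESC and 0 for pNSC_LF minus pNSC_L, where 2.2% and 0.502% of all genes passed. For dNSC minus pNSC_LF, dNSC minus CNS_NSC and CNS_NSC minus ESC they covered 8 members each, where 12.2%, 10.4% and 16.6% of all genes passed. Over the 5 groups, limma's F test called 26 of 41 members, 63.4%, near the 57.7% of all genes. A total of 17 members had their highest group mean in dNSC, which is 41.5%, where 22.1% of all genes peaked there. CNS_NSC held the highest mean of 6 members, 14.6%, where 28.6% of all genes peaked there.

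**Figure D1:**
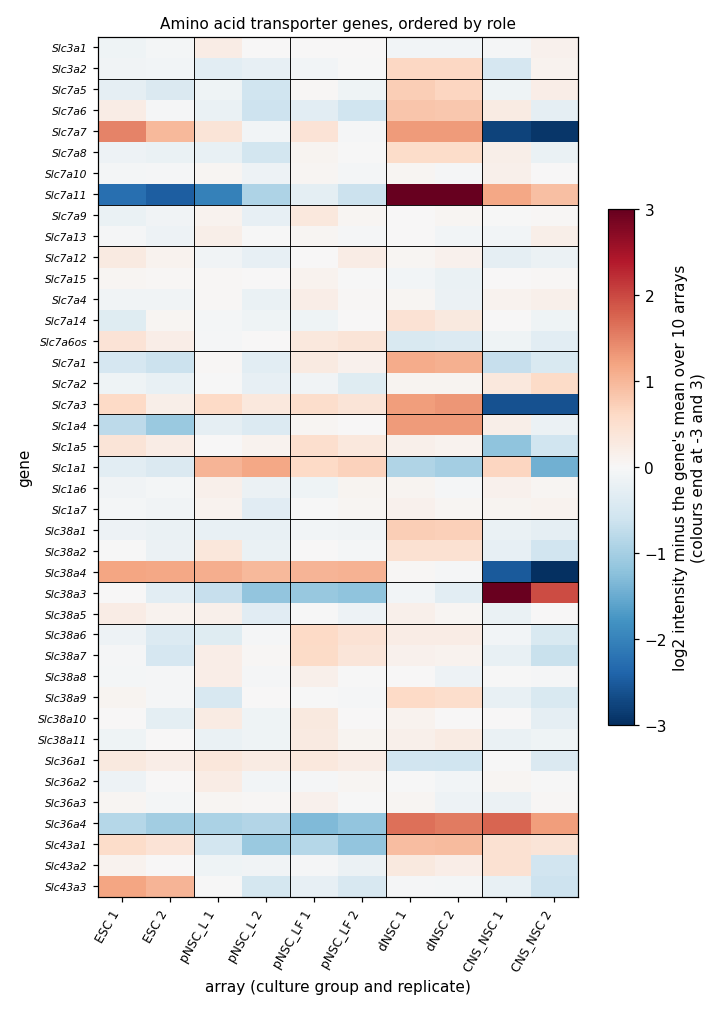
Log2 intensity of the 41 genes on each of the 10 arrays, minus the gene's mean over the 10 arrays, with genes grouped by role (rows) and arrays by culture group (columns). Slc7a11 and Slc36a4 are red on both dNSC arrays, while Slc7a7, Slc7a3 and Slc38a4 are deep blue on both CNS_NSC arrays.

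The heavy chain Slc3a2, which carries the light chains to the cell surface, had intensities of 13.05 and 13.09 in ESC, 12.85 and 12.92 in pNSC_L, 13.07 and 13.16 in pNSC_LF, 13.77 and 13.79 in dNSC, and 12.65 and 13.26 in CNS_NSC. Both dNSC arrays lay above every other array. It rose by 0.67 ± 0.17 in dNSC over pNSC_LF, or 1.59-fold (limma adjusted p = 0.00888), and was 0.82 ± 0.17 higher in dNSC than in CNS_NSC, or 1.77-fold (adjusted p = 0.00313). The call against pNSC_LF was lost without pNSC_LF replicate 1 or dNSC replicate 2, with an adjusted p of up to 0.059. Slc3a1, the heavy chain of the renal cystine carrier, stayed between 6.78 and 7.13 on all arrays and was called in no comparison.

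Of the 6 light chains that pair with Slc3a2, 5 rose in dNSC over pNSC_LF and 0 fell, with a median difference of 0.91. Of all genes, 19.3% rose and 19.3% fell there. Against CNS_NSC 5 were higher in dNSC and 0 lower (median 0.75), where 17.6% of all genes were higher and 16.5% lower. Some calls of Slc7a5, Slc7a6 and Slc7a8 were lost without single arrays, as given for each below. In pNSC_L against ESC 0 rose and 1 fell, where 6.56% of all genes rose and 6.79% fell. In CNS_NSC against ESC 1 was higher and 1 lower, where 21.7% of all genes were higher and 22.1% lower. Slc7a10, an alanine, serine and cysteine carrier of neurons and astrocytes, was the light chain called in none, and lay between 7.29 and 7.60 on all arrays. The 2 light chains of Slc3a1, Slc7a9 and Slc7a13, were called in no comparison.

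**Figure D2:**
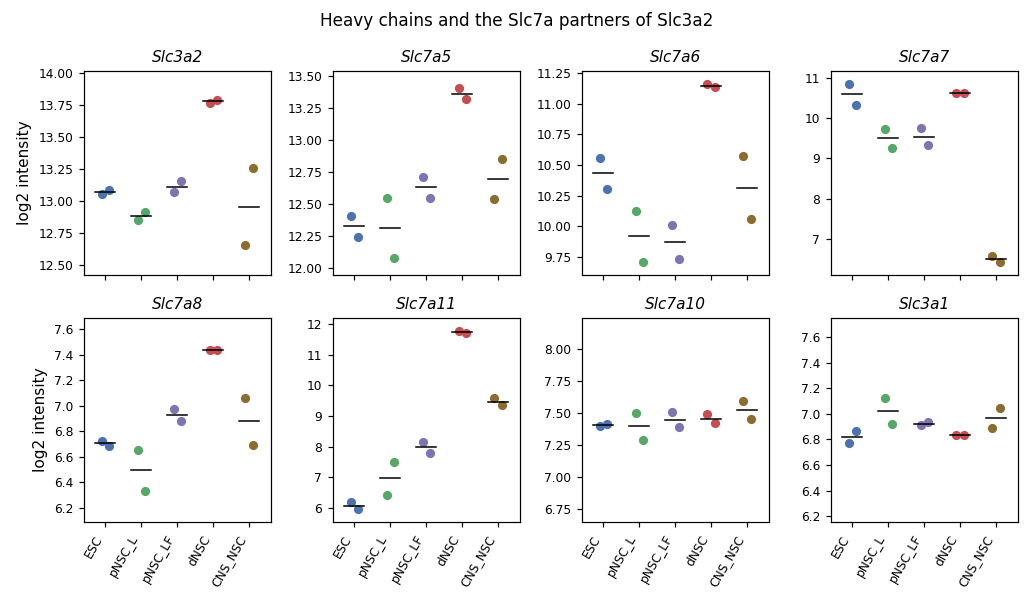
Log2 intensity (vertical axes, each gene with its own range) of the heavy chains and of the light chains that pair with Slc3a2 in the 5 groups (horizontal axes). Points are arrays and lines are means of 2 arrays; the dNSC arrays lie above all others for Slc3a2, Slc7a5, Slc7a6, Slc7a8 and Slc7a11, and CNS_NSC lies far below all others for Slc7a7.

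The promoters of 3 members held the core of the C/EBP-ATF response element, the DNA motif through which Atf4 acts. All 3 genes rose in dNSC over pNSC_LF, as described for each further on, and their stretches were chosen for that. At that step 15 of the 41 members rose, 36.6%, where 19.3% of all genes rose. Slc7a1, Slc7a6, Slc7a14, Slc36a4, Slc38a9 and Slc43a1 also rose, and their promoters lacked this motif. A link between the motif and the rise was not tested. The windows run from 250 bases before to 50 bases after each start site, from RefSeq on build GRCm38.p6, and 30 of the 41 members matched at least 1 window. The motif TGATGNAA on either strand was in the windows of 3 of these 30 members, where 4.51% of all genes with a window held it. Counted by window, it was in 4 of 41 member windows and in 3.97% of all 32851. Capitals mark the motif, read 5′ to 3′ on the gene's strand, in either orientation.
Slc7a11, chr3:50443614-50443733, minus strand: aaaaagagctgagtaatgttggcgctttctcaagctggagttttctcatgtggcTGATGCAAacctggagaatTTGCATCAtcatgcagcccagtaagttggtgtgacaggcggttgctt
Slc1a4, chr11:20332694-20332813, minus strand: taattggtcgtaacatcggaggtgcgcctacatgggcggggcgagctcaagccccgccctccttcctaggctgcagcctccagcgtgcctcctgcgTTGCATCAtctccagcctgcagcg
Slc7a7, chr14:54417925-54418089, minus strand: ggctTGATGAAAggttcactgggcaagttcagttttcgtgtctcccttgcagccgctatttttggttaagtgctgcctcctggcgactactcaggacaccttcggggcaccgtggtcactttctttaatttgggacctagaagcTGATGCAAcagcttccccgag
Slc7a11 held 2 copies that face each other, at positions -66 and -47 from the start site. Slc1a4 held 1 copy at position -4, and Slc7a7 held copies at positions -141 and -1 in the window shown. Slc7a7 has more than 1 start site in RefSeq, and its copy at -1 lay at -243 from another. A match describes letters only and is no evidence of binding. The core of the antioxidant response element, TGACNNNGC, was in the windows of 5 of the 30 members, where 14.0% of all genes held it. Of these, Slc7a1, Slc7a6 and Slc43a1 rose in dNSC over pNSC_LF, Slc36a1 fell and Slc38a2 was not called. Other motifs were searched as well. CACGTG was in the windows of 7 of the 30 members, where 8.09% of all genes held it. TTCNNNGAA was in 3 (9.55% of all genes), TGACGTCA in 1 (2.03%) and CCAAT in 10 (41.1%).

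Slc7a11 (xCT), the member with the facing pair of motif copies, which imports cystine in exchange for glutamate and so feeds glutathione synthesis, was dim in ESC and bright in dNSC. Its intensities were 6.18 and 5.96 in ESC, 6.41 and 7.51 in pNSC_L, 8.15 and 7.80 in pNSC_LF, 11.77 and 11.73 in dNSC, and 9.60 and 9.35 in CNS_NSC. No group overlapped another, and each group mean of the culture series lay above the one before it. The first steps missed the threshold: pNSC_L minus ESC was 0.89 ± 0.28 (limma adjusted p = 0.0678) and pNSC_LF minus pNSC_L was 1.01 ± 0.28 (adjusted p = 0.12). The pNSC_L replicates lay 1.10 apart, and which step was called depended on them. Without pNSC_L replicate 1, pNSC_L minus ESC was 1.44 (adjusted p = 0.00171), and without pNSC_L replicate 2, pNSC_LF minus pNSC_L was 1.56 (adjusted p = 0.00358). In dNSC the gene was 3.77 ± 0.28 above pNSC_LF, a 13.7-fold rise (adjusted p = 3.65e-06). It was 2.27 ± 0.28 higher in dNSC than in CNS_NSC, or 4.83-fold (adjusted p = 0.000144). CNS_NSC exceeded ESC by 3.40 ± 0.28 (adjusted p = 4.65e-06), and since ESC lay below the lower quartile of all probe sets, the size of differences from ESC is uncertain.

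Slc7a5, the main importer of leucine and other large neutral amino acids, had 12.41 and 12.24 in ESC, 12.55 and 12.08 in pNSC_L, 12.71 and 12.55 in pNSC_LF, 13.41 and 13.32 in dNSC, and 12.54 and 12.85 in CNS_NSC. The dNSC arrays stood above all others. pNSC_L overlapped with ESC, and CNS_NSC with pNSC_LF. The rise in dNSC over pNSC_LF was 0.74 ± 0.17, or 1.67-fold (limma adjusted p = 0.00502). Over CNS_NSC dNSC was higher by 0.67 ± 0.17, or 1.59-fold (adjusted p = 0.0100), a call lost without dNSC replicate 1 or CNS_NSC replicate 1 (adjusted p of up to 0.0713).

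Slc7a6, which exchanges cationic for neutral amino acids, had 10.56 and 10.30 in ESC, 10.13 and 9.71 in pNSC_L, 10.01 and 9.73 in pNSC_LF, 11.16 and 11.14 in dNSC, and 10.57 and 10.06 in CNS_NSC. The dNSC arrays lay above all others, and ESC and CNS_NSC overlapped. It rose 2.43-fold in dNSC over pNSC_LF (1.28 ± 0.19, limma adjusted p = 0.000443) and was 1.79-fold higher in dNSC than in CNS_NSC (0.84 ± 0.19, adjusted p = 0.00706). The call against CNS_NSC was lost without CNS_NSC replicate 2, with an adjusted p of 0.0523. Its opposite-strand neighbour Slc7a6os moved the other way at the step to dNSC: it had 9.00 and 9.05 in dNSC, against 9.77 and 9.83 in pNSC_LF, a fall of 0.78 ± 0.11 (adjusted p = 0.000319).

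Slc7a7, another exchanger of cationic amino acids, best known from kidney, gut and macrophages, had the largest difference of the 41 members between dNSC and CNS_NSC. It had 10.84 and 10.33 in ESC, 9.74 and 9.26 in pNSC_L, 9.76 and 9.32 in pNSC_LF, 10.63 and 10.62 in dNSC, and 6.58 and 6.44 in CNS_NSC. ESC and dNSC overlapped, the primitive cultures lay below both, and CNS_NSC lay near the lower quartile of all probe sets, 6.39 to 6.49. It fell by 1.09 ± 0.21 in pNSC_L against ESC (limma adjusted p = 0.00754), a call lost without ESC replicate 1 (adjusted p = 0.0741), and rose by 1.08 ± 0.21 in dNSC over pNSC_LF (adjusted p = 0.002). dNSC exceeded CNS_NSC by 4.11 ± 0.21, or 17.3-fold (adjusted p = 2.53e-07), and CNS_NSC lay 16.9-fold below ESC (-4.08 ± 0.21, adjusted p = 1.2e-07). The mean level of 6 macrophage and microglia markers was 6.94 and 6.86 in dNSC, against 6.95 and 6.96 in CNS_NSC. Of the 6, 0 were higher and 1 lower in dNSC than in CNS_NSC. The part of macrophages and microglia in the Slc7a7 differences was not tested.

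Slc7a8, an importer of small and large neutral amino acids, was dimmer, with 7.44 and 7.44 in dNSC and between 6.33 and 7.06 on the other arrays. Its rises of 0.51 ± 0.14 over pNSC_LF (limma adjusted p = 0.0171) and 0.56 ± 0.14 over CNS_NSC (adjusted p = 0.0124) were lost when single replicates were left out, with adjusted p of up to 0.101 and 0.0856.

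Among the carriers of arginine and lysine, Slc7a1 and Slc7a3 rose in dNSC. Slc7a1, the widely expressed arginine importer, had 10.26 and 10.11 in ESC, 10.80 and 10.43 in pNSC_L, 11.03 and 10.88 in pNSC_LF, 11.87 and 11.81 in dNSC, and 10.05 and 10.29 in CNS_NSC. ESC and CNS_NSC overlapped at the low end, and dNSC stood alone at the top. It was 0.89 ± 0.14 higher in dNSC than in pNSC_LF, or 1.85-fold (limma adjusted p = 0.00064), and 1.67 ± 0.14 higher than in CNS_NSC, or 3.19-fold (adjusted p = 9.83e-06). The step of 0.43 in pNSC_L over ESC missed the threshold (adjusted p = 0.0801).

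Slc7a3, an arginine and lysine importer of embryonic and neural cells, lay between 11.60 and 12.02 on the 6 arrays of the Lif cultures, at 12.68 and 12.76 in dNSC, and at 8.82 and 8.82 in CNS_NSC. CNS_NSC was thus far below all stem cell-derived cultures. dNSC exceeded pNSC_LF by 0.83 ± 0.15 (limma adjusted p = 0.00129) and CNS_NSC by 3.90 ± 0.15, or 14.9-fold (adjusted p = 4.61e-08). CNS_NSC was 7.97-fold below ESC (-2.99 ± 0.15, adjusted p = 9.91e-08). Slc7a2, the cationic carrier known from liver and macrophages, showed another order, with 7.33 and 7.59 in CNS_NSC, against 6.87 and 6.77 in ESC, a difference of 0.63 ± 0.14 (adjusted p = 0.00324).

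Slc1a4, a sodium-dependent exchanger of alanine, serine and cysteine whose motif copy lies at its start site, was called in 4 comparisons, as was Slc7a7 and no other member. It had 9.77 and 9.45 in ESC, 10.29 and 10.15 in pNSC_L, 10.62 and 10.58 in pNSC_LF, 11.84 and 11.83 in dNSC, and 10.73 and 10.39 in CNS_NSC. The order along the culture series was the same as for Slc7a11 and Slc7a1, lowest in ESC and highest in dNSC. It rose by 0.61 ± 0.14 in pNSC_L over ESC (limma adjusted p = 0.0194), a call lost without ESC replicate 2, without pNSC_L replicate 1 or in a fit of these groups alone (adjusted p of up to 0.156). The rise in dNSC over pNSC_LF was 1.24 ± 0.14, or 2.36-fold (adjusted p = 6.84e-05), and dNSC exceeded CNS_NSC by 1.28 ± 0.14, or 2.42-fold (adjusted p = 6.55e-05). CNS_NSC lay 0.95 ± 0.14 above ESC (adjusted p = 0.000302).

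Slc1a5, the glutamine exchanger on which many fast-growing cells rely, followed another course. It had 10.43 and 10.26 in ESC, 10.05 and 10.15 in pNSC_L, 10.55 and 10.35 in pNSC_LF, 10.18 and 10.16 in dNSC, and 8.84 and 9.44 in CNS_NSC. Only CNS_NSC stood apart, below the other groups. dNSC minus pNSC_LF was -0.28 and was not called, though a limma fit of these groups alone called it lower (adjusted p = 0.0401). dNSC exceeded CNS_NSC by 1.03 ± 0.17, or 2.04-fold (limma adjusted p = 0.00106), and CNS_NSC lay 1.20 below ESC (-1.20 ± 0.17, adjusted p = 0.000239).

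Slc1a1, a glutamate and cysteine carrier of neurons and epithelia, was higher in the primitive cultures than in dNSC. It had 8.53 and 8.42 in ESC, 9.85 and 9.99 in pNSC_L, 9.44 and 9.53 in pNSC_LF, 7.95 and 7.83 in dNSC, and 9.48 and 7.40 in CNS_NSC. Replicates agreed closely in 4 groups and lay 2.08 apart in CNS_NSC, which widens the error of the gene in all comparisons. dNSC was 3.02-fold lower than pNSC_LF (-1.59 ± 0.48, limma adjusted p = 0.0233), a call lost without any one of the 4 arrays (adjusted p of up to 0.105). The difference pNSC_L minus ESC, 1.45 ± 0.48, missed the threshold (adjusted p = 0.0777), and in a fit of these groups alone, without the CNS_NSC arrays, it was called at the same size (adjusted p = 0.00161). The glutamate carriers Slc1a6 and Slc1a7 were called in no comparison.

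**Figure D3:**
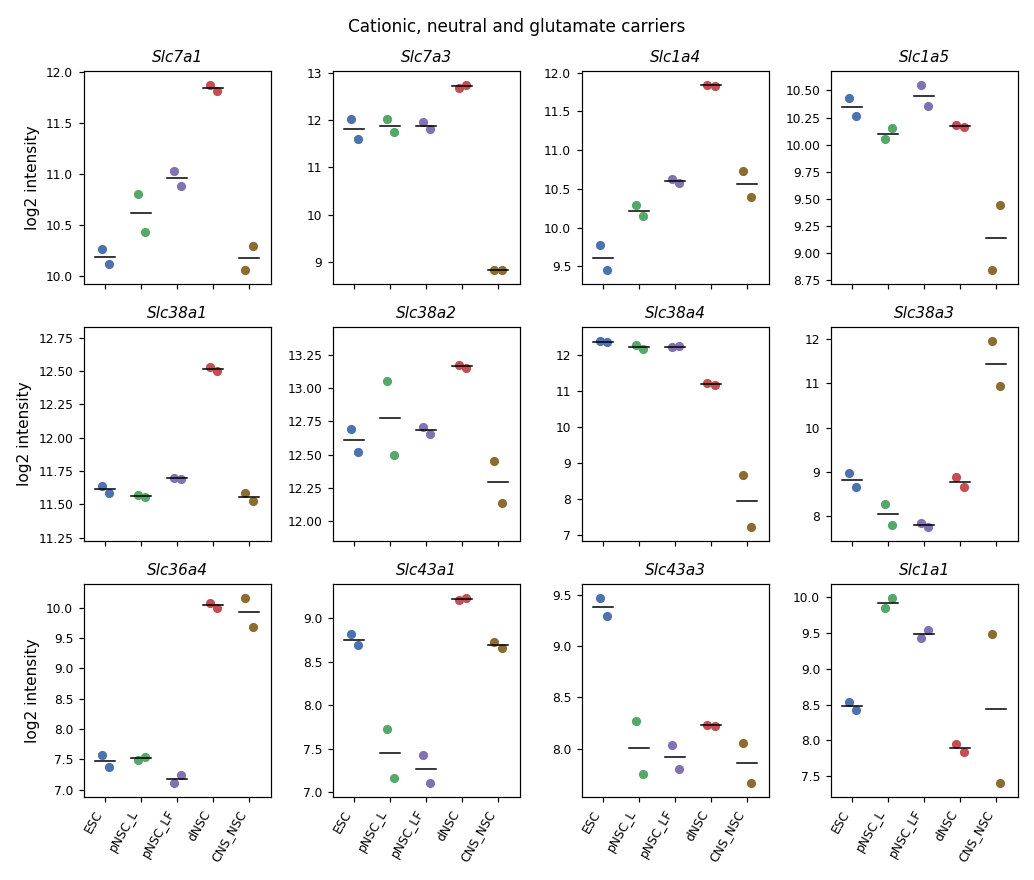
Log2 intensity (vertical axes, each gene with its own range) of 12 cationic, neutral and glutamate carriers in the 5 groups (horizontal axes). Points are arrays and lines are means of 2 arrays; dNSC lies on top for Slc7a1, Slc7a3, Slc1a4, Slc38a1 and Slc43a1, CNS_NSC lies on top for Slc38a3, and the CNS_NSC arrays lie far apart for Slc1a1 and Slc38a4.

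The Slc38a genes hold the System A carriers Slc38a1, Slc38a2 and Slc38a4, which lie side by side on chromosome 15, and the System N carriers Slc38a3 and Slc38a5. Slc38a1, a glutamine importer of neurons and progenitors, had 12.53 and 12.50 in dNSC and between 11.53 and 11.70 on all other arrays. It rose by 0.82 ± 0.09 in dNSC over pNSC_LF, or 1.76-fold (limma adjusted p = 6.02e-05), and was 0.96 ± 0.09 higher in dNSC than in CNS_NSC, or 1.94-fold (adjusted p = 2.29e-05). Its second, dimmer probe set was also highest in dNSC, at 9.78 and 9.80, against 9.17 and 9.34 in pNSC_LF and 9.37 and 9.04 in CNS_NSC.

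Slc38a2, the System A carrier that amino acid shortage induces, had 12.69 and 12.52 in ESC, 13.05 and 12.50 in pNSC_L, 12.71 and 12.66 in pNSC_LF, 13.17 and 13.15 in dNSC, and 12.46 and 12.14 in CNS_NSC. dNSC lay above the other arrays by a small margin over pNSC_L replicate 1. It was 0.87 ± 0.17 higher in dNSC than in CNS_NSC (limma adjusted p = 0.00318), and 0.48 ± 0.17 above pNSC_LF, which missed the threshold (adjusted p = 0.0532). That difference was called in 4 alternatives: without the dimmer 50% of genes, with a trended prior, in a fit of these groups alone and with the replicate block (adjusted p of 0.00154 to 0.0406).

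Slc38a4, which is imprinted in the mouse and expressed from the paternal allele, followed another course. It had 12.38 and 12.35 in ESC, 12.27 and 12.17 in pNSC_L, 12.21 and 12.25 in pNSC_LF, 11.22 and 11.16 in dNSC, and 8.67 and 7.24 in CNS_NSC. It was thus bright in the Lif cultures, lower in dNSC and lowest in CNS_NSC, without overlap between these. The fall in dNSC against pNSC_LF was 2.05-fold (-1.04 ± 0.33, limma adjusted p = 0.0322), a call lost without any one of the 4 arrays (adjusted p of up to 0.127). dNSC exceeded CNS_NSC by 3.24 ± 0.33, or 9.46-fold (adjusted p = 3.84e-05), and CNS_NSC lay 21.4-fold below ESC (-4.42 ± 0.33, adjusted p = 2.26e-06). The CNS_NSC replicates lay 1.43 apart, and leaving out either moved dNSC minus CNS_NSC to between 2.53 and 3.96.

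Slc38a3, the glutamine, histidine and asparagine carrier of astrocytes and liver, was the only member lower in dNSC than in CNS_NSC in the fit of all genes and arrays, and other members joined it in some alternatives. Slc36a1 did so in 4 (adjusted p of 0.00444 to 0.0457), Slc7a2 with quantile normalization (-0.45, adjusted p = 0.0195) or without CNS_NSC replicate 1 (-0.51, adjusted p = 0.033), and Slc1a1 without CNS_NSC replicate 2 (-1.59, adjusted p = 1.75e-05). Slc38a3 had 8.98 and 8.66 in ESC, 8.29 and 7.80 in pNSC_L, 7.85 and 7.76 in pNSC_LF, 8.89 and 8.66 in dNSC, and 11.95 and 10.93 in CNS_NSC. CNS_NSC stood far above all other arrays. dNSC was 6.36-fold lower than CNS_NSC (-2.67 ± 0.28, limma adjusted p = 4.76e-05), and CNS_NSC was 6.15-fold above ESC (2.62 ± 0.28, adjusted p = 3.1e-05). The rise of 0.97 ± 0.28 in dNSC over pNSC_LF (adjusted p = 0.0207) was lost without any one of the 4 arrays (adjusted p of up to 0.123). Markers of the oligodendrocyte lineage moved alongside: 0 of 5 were higher and 3 of 5 lower in dNSC than in CNS_NSC, and their mean level was 7.91 and 7.81 in dNSC, against 11.11 and 10.33 in CNS_NSC. Of 5 astrocyte markers, 0 were higher and 2 lower in dNSC than in CNS_NSC, with mean levels of 6.64 and 6.52 in dNSC, against 7.23 and 7.24 in CNS_NSC. Of all genes, 17.6% were higher and 16.5% lower in dNSC than in CNS_NSC. The part of astrocytes and cells of the oligodendrocyte lineage in the Slc38a3 difference was not tested.

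Slc38a9, a lysosomal carrier that reports arginine to the kinase mTORC1, had 10.39 and 10.30 in dNSC and between 9.31 and 9.87 on all other arrays. It was 0.90 ± 0.16 higher in dNSC than in CNS_NSC (limma adjusted p = 0.00122). Its rise of 0.59 ± 0.16 over pNSC_LF (adjusted p = 0.0123) was lost without either pNSC_LF array or dNSC replicate 1 (adjusted p of up to 0.0794). Of the other Slc38a genes, Slc38a6, Slc38a7 and Slc38a11 were higher in dNSC than in CNS_NSC by 0.51, 0.56 and 0.36 (adjusted p of 0.0319, 0.035 and 0.0269), and each lost its call without either dNSC array. Slc38a6 was the member nearest to a call between the primitive cultures: it was 0.73 ± 0.16 higher in pNSC_LF than in pNSC_L (adjusted p = 0.0544).

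Slc36a4, a high-affinity carrier of proline and tryptophan, separated the FGF and EGF cultures from the Lif cultures. It had 7.57 and 7.38 in ESC, 7.49 and 7.55 in pNSC_L, 7.11 and 7.25 in pNSC_LF, 10.09 and 9.99 in dNSC, and 10.17 and 9.68 in CNS_NSC. dNSC and CNS_NSC overlapped, and both lay above all Lif cultures. It rose 7.28-fold in dNSC over pNSC_LF (2.86 ± 0.15, limma adjusted p = 3.76e-07) and was 5.45-fold higher in CNS_NSC than in ESC (2.45 ± 0.15, adjusted p = 5.43e-07). dNSC minus CNS_NSC was 0.12 ± 0.15 (adjusted p = 0.639).

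Slc36a1, the lysosomal carrier of glycine, proline and alanine, moved the other way: it had 8.55 and 8.53 in dNSC, against 9.44 and 9.36 in pNSC_LF, a 1.82-fold fall (-0.86 ± 0.14, limma adjusted p = 0.000604). It was also lower in CNS_NSC than in ESC (-0.46 ± 0.14, adjusted p = 0.0189), a call lost without ESC replicate 1 or CNS_NSC replicate 2 or in a fit of these groups alone (adjusted p of up to 0.13). Slc36a2 and Slc36a3, which lie beside it on chromosome 11, were called in no comparison.

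Of the 3 Slc43a genes, 2 fell in pNSC_L against ESC. Slc43a1, a carrier of leucine and other large neutral amino acids, had 8.82 and 8.69 in ESC, 7.72 and 7.17 in pNSC_L, 7.43 and 7.10 in pNSC_LF, 9.21 and 9.24 in dNSC, and 8.73 and 8.66 in CNS_NSC. The primitive cultures were low and did not overlap with the groups on either side. pNSC_L lay 2.48-fold below ESC (-1.31 ± 0.17, limma adjusted p = 0.00115), and dNSC rose 3.90-fold over pNSC_LF (1.96 ± 0.17, adjusted p = 1.16e-05). The excess of dNSC over CNS_NSC, 0.53 ± 0.17 (adjusted p = 0.0392), was lost without any one of the 4 arrays (adjusted p of up to 0.149).

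Slc43a3, which lies near Slc43a1 on chromosome 2 with 1 protein-coding gene between, had 9.47 and 9.29 in ESC, 8.27 and 7.75 in pNSC_L, 8.03 and 7.80 in pNSC_LF, 8.23 and 8.22 in dNSC, and 8.06 and 7.66 in CNS_NSC. ESC alone stood high. pNSC_L lay 2.59-fold below ESC (-1.37 ± 0.18, limma adjusted p = 0.0012) and CNS_NSC 2.88-fold below ESC (-1.52 ± 0.18, adjusted p = 6.9e-05). Unlike Slc43a1, it was not called in dNSC against pNSC_LF in the fit of all arrays. A limma fit of these groups alone called Slc43a3 higher in dNSC (0.31, adjusted p = 0.0325). Slc43a2, the remaining carrier of the family, was called in no comparison in the fit of all arrays. In the fit of dNSC and pNSC_LF alone, Slc43a2 was called higher in dNSC (0.36, adjusted p = 0.0125).

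**Figure D4:**
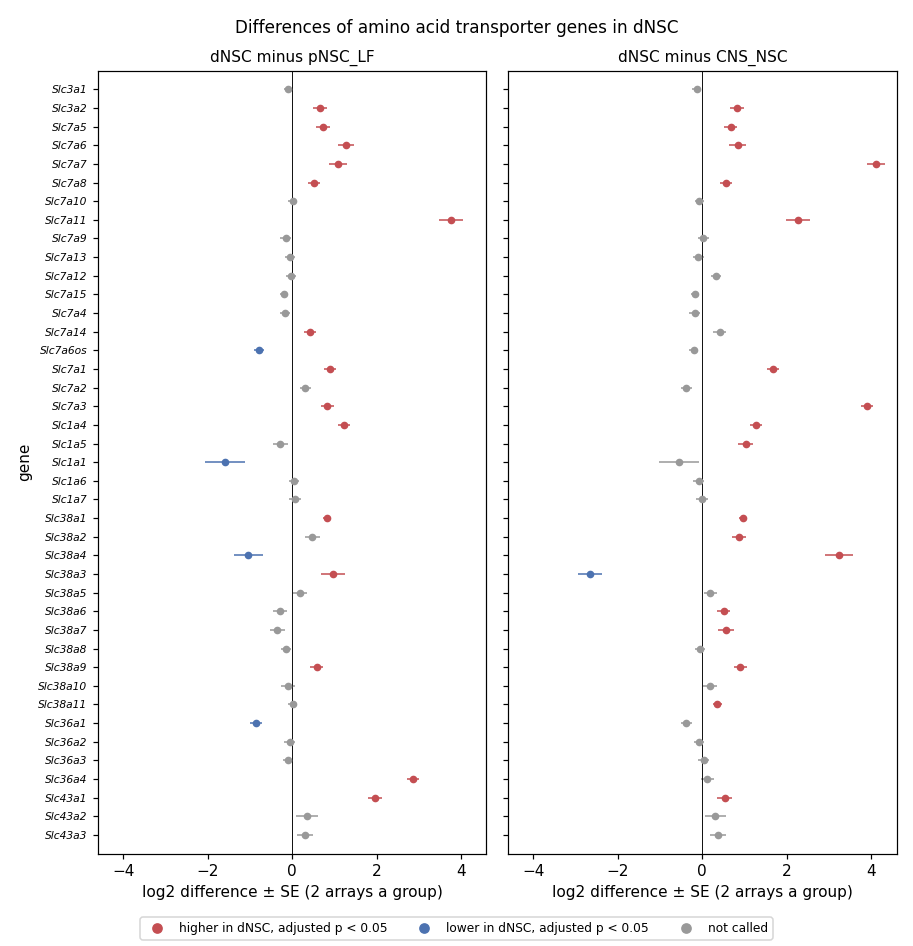
Log2 difference ± SE (horizontal axes, 2 arrays per group) of the 41 genes (vertical axis) for dNSC minus pNSC_LF (left) and dNSC minus CNS_NSC (right), which share the dNSC arrays. Red points are higher in dNSC, 15 on the left and 18 on the right; blue points are lower, 4 on the left and Slc38a3 alone on the right; grey points were not called.

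A total of 14 members were called in none of the 5 comparisons, and their array values lay between 5.55 and 9.62. Of these, 12 were below the median gene (8.10) on all arrays. The dim members Slc7a12 and Slc7a14 had single calls. Slc7a12 was 0.41 lower in CNS_NSC than in ESC (-0.41, limma adjusted p = 0.0137), lost without ESC replicate 1 or CNS_NSC replicate 1. Slc7a14 was 0.42 higher in dNSC than in pNSC_LF (adjusted p = 0.0452), lost in 6 alternatives, the replicate block among them (adjusted p of up to 0.229). Among the 24 members at or above the median gene, in a fit of the brighter 50% of genes, 58.3% rose and 16.7% fell in dNSC against pNSC_LF, where 27.4% of those genes rose and 31.3% fell. In the same fit 66.7% of members were higher and 8.33% lower in dNSC than in CNS_NSC, where 27.7% of genes were higher and 25.8% lower. The brighter 50% were taken by the mean over all 10 arrays, those of dNSC among them. A member bright mainly in dNSC could thus pass through that group, so these shares are no separate support for a rise.

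Other genes of the amino acid response, like the transporters, rose more often than they fell at the step to dNSC. Between the primitive cultures they differed from the transporters, of which 0 of 41 were called. Of 29 genes measured from a list of the Atf4 pathway, 18 rose and 2 fell in dNSC against pNSC_LF. Over all genes, 19.3% rose and 19.3% fell. The median difference was 0.80, beside -0.01 over all genes. Against CNS_NSC, 25 were higher and 1 lower in dNSC (median 1.28), where 17.6% of all genes were higher and 16.5% lower. In pNSC_LF against pNSC_L 9 rose and 0 fell (median 0.34), where 1.1% of all genes rose and 0.677% fell. In pNSC_L against ESC 0 rose and 5 fell (median -0.16), where 6.56% of all genes rose and 6.79% fell. In CNS_NSC against ESC 2 were higher and 15 lower (median -0.44), where 21.7% of all genes were higher and 22.1% lower.

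**Figure D5:**
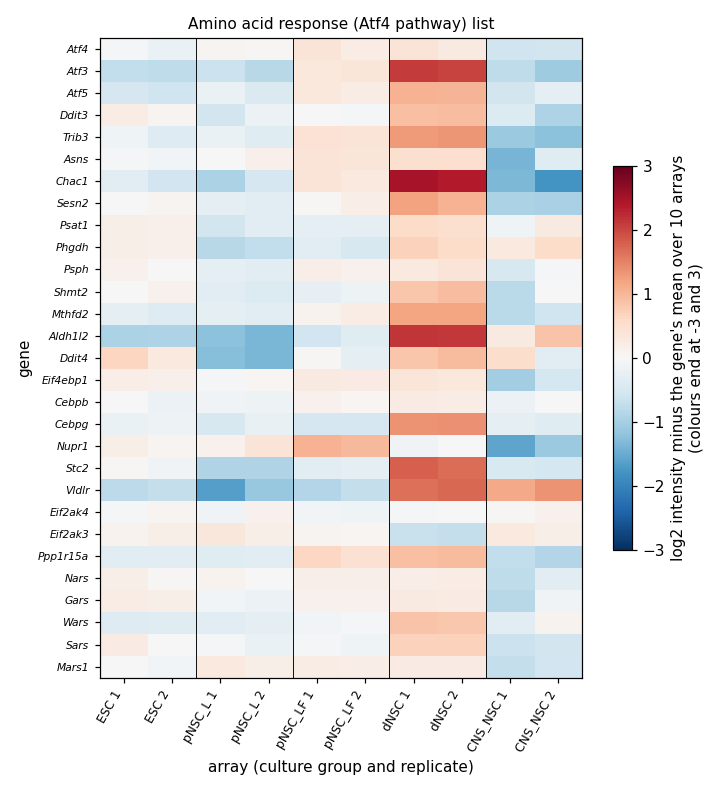
Log2 intensity of 29 amino acid response genes on each of the 10 arrays, minus the gene's mean over the 10 arrays, with genes in rows and arrays by culture group in columns. Chac1, Atf3, Aldh1l2 and Stc2 are red on both dNSC arrays, while Eif2ak3 is blue there.

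Chac1, which degrades glutathione and is a target of Atf4, had 9.47 and 9.26 in ESC, 8.88 and 9.31 in pNSC_L, 10.21 and 10.11 in pNSC_LF, 12.28 and 12.20 in dNSC, and 8.47 and 8.03 in CNS_NSC. It was 3.99 ± 0.17 higher in dNSC than in CNS_NSC, or 15.9-fold (limma adjusted p = 1.02e-07). Atf3, a stress-induced transcription factor, rose by 1.08 ± 0.12 in pNSC_LF over pNSC_L (adjusted p = 0.00265) and was 2.98 ± 0.12 higher in dNSC than in CNS_NSC. Aldh1l2, a mitochondrial folate enzyme, and Vldlr, a lipoprotein receptor, rose by 2.60 ± 0.17 and 2.49 ± 0.16 in dNSC over pNSC_LF. Nupr1, a stress-induced nuclear protein, fell by 1.05 ± 0.15 there, and Eif2ak3, the kinase that senses unfolded protein, fell by 0.77 ± 0.10. At the first step Ddit4, an inhibitor of mTORC1, fell by 1.78 ± 0.24 in pNSC_L against ESC, and Phgdh, the first enzyme of serine synthesis, fell by 0.95 ± 0.12. Atf4 itself differed by 0.03 between dNSC and pNSC_LF (adjusted p = 0.881) and was 0.91 ± 0.11 higher in dNSC than in CNS_NSC.

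Genes through which mTORC1 senses amino acids moved in both directions. Of 32 measured, 9 rose and 12 fell in dNSC against pNSC_LF, and 8 were higher and 7 lower in dNSC than in CNS_NSC. Over all genes, 19.3% rose and 19.3% fell against pNSC_LF, and 17.6% were higher and 16.5% lower than in CNS_NSC. Rragb and Rragd, GTPases that hold mTORC1 at the lysosome, rose in dNSC over pNSC_LF by 0.99 and 0.85, while Deptor, an inhibitor of mTOR, fell by 1.19. Castor1, an arginine sensor, was 1.66 higher in dNSC than in CNS_NSC, and Sesn1, a leucine sensor, was lower (-1.64).

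Enzymes of amino acid metabolism fell more often than they rose at the step to dNSC, with 5 of 23 measured rising and 12 falling against pNSC_LF (median -0.42). Of all genes, 19.3% rose and 19.3% fell there. Gpt2, a mitochondrial alanine transaminase, and Aldh18a1, of proline synthesis, rose by 1.72 and 1.27, while Glud1, glutamate dehydrogenase, fell by 1.50 and Bcat2, which starts leucine breakdown in mitochondria, fell by 1.27. Against CNS_NSC 9 were higher and 2 lower in dNSC, where 17.6% of all genes were higher and 16.5% lower. Bcat1, the cytosolic counterpart of Bcat2, was 2.57 higher. In CNS_NSC against ESC 1 was higher and 15 lower (median -0.62), where 21.7% of all genes were higher and 22.1% lower.

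Amino acid and amine transporters outside the families above showed no single direction. Of 28 measured, 9 rose and 7 fell in dNSC against pNSC_LF, where 19.3% of all genes rose and 19.3% fell. In dNSC 9 were higher and 6 lower than in CNS_NSC, where 17.6% of all genes were higher and 16.5% lower. Slc6a9, a glycine importer, rose by 2.21 in dNSC over pNSC_LF, and Slc1a3, the glutamate carrier of radial glia and astrocytes, rose by 1.61. In the comparison with CNS_NSC, Slc25a13, a mitochondrial aspartate and glutamate carrier, and Slc6a15, a neuronal carrier of branched amino acids, were 2.54 and 2.52 higher in dNSC. Slc6a11, a GABA carrier, was far lower in dNSC than in CNS_NSC (-3.98), and Slc1a3 was lower as well (-1.84).

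Markers of some cell types other than neural stem cells also moved at the step to dNSC. Against pNSC_LF, 19.3% of all genes rose and 19.3% fell. Of 9 fibroblast markers, 7 rose and 1 fell against pNSC_LF, and their mean level was 8.31 and 8.26 in dNSC, against 7.46 and 7.45 in pNSC_LF and 7.25 and 7.23 in CNS_NSC. Of 6 primitive endoderm markers, 4 rose and 0 fell, with mean levels of 9.09 and 9.09 in dNSC, against 7.98 and 7.98 in pNSC_LF and 7.75 and 7.80 in CNS_NSC. Of 6 endothelial markers, 4 rose and 2 fell, with 8.37 and 8.40 in dNSC, against 7.88 and 7.87 in pNSC_LF and 7.03 and 7.13 in CNS_NSC. Of 8 neuron markers 7 rose and 1 fell, with 9.39 and 9.35 in dNSC, against 8.01 and 8.05 in pNSC_LF and 9.09 and 8.49 in CNS_NSC. Other sets moved less: of 5 astrocyte markers 0 rose and 1 fell, and of 5 oligodendrocyte lineage markers 1 rose and 0 fell. Of 6 macrophage and microglia markers 0 rose and 2 fell. The array gives no zero level, so none of these markers can be called absent. Whether such cells contributed to the transporter differences of dNSC was not tested.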

How the data were processed

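Per the labels' protocols, Trizol RNA of 10 cultures was labelled (Ambion whole-transcript kit) and measured on Affymetrix arrays. The deposited values are log2 intensities of 35556 probe sets, made by the authors with RMA and Partek, per the submitters' processing notes; versions and genome build are not given in the sources used here. Base 2 was inferred from the range of values, 2.07 to 14.7. RMA compresses differences of dim probe sets. The 21789 probe sets with 1 gene symbol were used (1621 had several and 12146 none here), and of the 999 genes with more than 1, the probe set with the highest mean was kept. No value was filtered or rescaled, and 0 pairs of arrays were identical.

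In limma 3.58.1 (R 4.3.3) the 5 group means were fitted together on the 10 arrays (5 residual and 4.9 prior degrees of freedom), and p-values were adjusted by Benjamini-Hochberg over all 19938 genes. The fit was tested on simulated data. Members called with a difference of at least 1 and separated replicates are given in full, with Slc3a1, Slc3a2, Slc7a1, Slc7a5 and Slc1a5 whatever their values. From each gene list, up to 2 rising and 2 falling genes per comparison were eligible, and the text names a part of them. Chac1 is shown by array, and Atf4 is named, as examples chosen after their values were seen. The members and lists were chosen with earlier results of these data known. Some list entries were not analysed here. Promoter windows came from RefSeq, and Python 3.11.15, pandas 2.3.3 and matplotlib 3.10.9 made the tables and plots. Alternatives were quantile normalization, leaving out the dimmer 50% of genes, a trended prior, only the groups compared, a replicate block, the mean of all probe sets, and each replicate left out in turn.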

Additional observations from a re-analysis of the deposited data

How the results depend on the processing

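Counts of called members kept within 1.5 times of the reported ones under the alternatives that left out no replicate, except between the primitive cultures. For pNSC_LF minus pNSC_L, quantile normalization, leaving out the dimmer 50% of genes and a trended prior each called 1 member, Slc38a6, in place of 0. With each replicate left out in turn, the number of members called was 3 to 6 for pNSC_L minus ESC (4 with all arrays), 0 to 2 for pNSC_LF minus pNSC_L, 12 to 13 for dNSC minus pNSC_LF (19 with all arrays, 12 without pNSC_LF replicate 1), 13 to 19 for dNSC minus CNS_NSC (19), 11 to 15 for CNS_NSC minus ESC (13) and 21 to 27 for any difference (26). Calls that every alternative kept were 12 of 19 for dNSC minus pNSC_LF, 12 of 19 for dNSC minus CNS_NSC, 2 of 4 for pNSC_L minus ESC and 11 of 13 for CNS_NSC minus ESC.

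Differences that changed direction came from leaving out a CNS_NSC array. Slc1a1 was 0.49 higher in dNSC than in CNS_NSC without CNS_NSC replicate 1 (limma adjusted p = 0.0173), and the difference was -1.59 without CNS_NSC replicate 2. Without CNS_NSC replicate 2, Slc1a1 was 1.01 higher in CNS_NSC than in ESC (adjusted p = 0.000189), and Slc43a2 was 0.39 higher (adjusted p = 0.0302). Without CNS_NSC replicate 1 these differences were -1.07 and -0.64. The cause was not tested.

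Whether the replicate numbers pair the arrays is not given by the labels. Deviations of same-numbered arrays correlated at 0.138 to 0.375 in the 6 pairs among ESC, pNSC_L, pNSC_LF and CNS_NSC, and at -0.107 to 0.094 in the 4 pairs with dNSC, so the numbers were not used as pairs. With the replicate block the fit called 6 members for pNSC_L minus ESC, 0 for pNSC_LF minus pNSC_L, 19 for dNSC minus pNSC_LF, 20 for dNSC minus CNS_NSC, 13 for CNS_NSC minus ESC and 26 for any difference. The block added calls for Slc7a6 and Slc38a3 in pNSC_L minus ESC (adjusted p = 0.0257 and 0.0256), Slc38a2 in dNSC minus pNSC_LF (0.0201) and Slc36a1 in dNSC minus CNS_NSC (0.0343), and lost Slc7a14 in dNSC minus pNSC_LF (0.0513). With 2 arrays per group, and with RMA compressing dim values, the size of a difference is uncertain for members below the lower quartile of probe sets, Slc38a11 and Slc7a12 among those called.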
